A study of Homo sapiens with 4 samples.

Results

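Circular RNAs (circRNAs) whose 2 joined splice sites lie 50 kb or more apart in the genome were described in 4 established human lines of liver cancer: Huh-7D12, Hep3B, SK-Hep-1 and HepG2. A circRNA was taken into the class when it had reads in at least 1 line, exactly 1 host gene in the deposited table and a distance of at least 50000 bases between the deposited positions of its back-splice junction. These positions flank the loop, so that a span is 1 base more than the loop printed by its first and last base. This held for 560 of the 7604 circRNAs with reads and 1 host gene. Of the others, 3241 spanned 10 to 50 kb, 2496 spanned 2 to 10 kb and 1307 spanned under 2 kb. Apart from the need for reads in at least 1 line and for 1 host gene, positions alone set the class. How high a level was did not enter the choice. The study profiled circRNAs by sequencing total RNA after removal of ribosomal RNA, with no poly(A) selection and with 100-base paired reads, and it gave 1 library per line. The labels name no treatment, passage or genotype for any line. With 1 library per line no test, p-value or standard deviation could be given, and lines were compared by size and by 95% intervals that cover counting error only.

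A circRNA forms when the spliceosome joins the 3′ end of a downstream exon to the 5′ end of an upstream one, a reaction called back-splicing, and the covalently closed ring that results has no cap and no poly(A) tail. Back-splicing is known to be favoured when the introns on either side of the loop are brought together, often by pairing of inverted repeats or by RNA-binding proteins. A ring seldom keeps the introns that lie inside it, so that a loop covering a long stretch of the genome usually leaves a short RNA. Sequencing identifies such RNAs by reads that cross the back-splice junction, and the number of those reads is the level used here.

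The back-splice junction is the sequence that sets a circRNA apart from the linear transcripts of its host. It is printed for 8 of the long loops, chosen because the results below turn on them. Each line gives 50 bases in the direction of the transcript, 5′ to 3′: lower case is the end of the last exon of the loop, and capitals are the start of its first exon. The bases are those of GENCODE 29 transcripts on GRCh38, not of reads. The first 4 are the abundant loop of RERE (chr1:8541214-8614686, minus strand, joining exon 8 to exon 5), and loops with the most reads among those seen in 1 line only, in SK-Hep-1 (BABAM2, chr2:27987993-28045799, plus strand, exon 7 to exon 5), in Huh-7D12 (NPLOC4, chr17:81572017-81622278, minus strand, exon 13 to exon 3) and in HepG2 (ITPR2, chr12:26550247-26602706, minus strand, exon 37 to exon 27). The last 4 are pairs of loops from the same host that share their first exon and differ in the last. They come from NFATC3 (plus strand, chr16:68121987-68191775 to exon 9 and chr16:68121987-68174514 to exon 6) and FNDC3B (plus strand, chr3:172251260-172310881 to exon 11 and chr3:172251260-172307501 to exon 10). In each pair the capitals are therefore the same and the lower case differs.
RERE exons 5 to 8: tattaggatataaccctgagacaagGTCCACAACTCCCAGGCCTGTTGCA
BABAM2 exons 5 to 7: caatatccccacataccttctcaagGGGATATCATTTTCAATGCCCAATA
NPLOC4 exons 3 to 13: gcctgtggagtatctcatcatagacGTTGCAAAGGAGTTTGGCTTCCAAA
ITPR2 exons 27 to 37: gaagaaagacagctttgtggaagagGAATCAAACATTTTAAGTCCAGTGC
NFATC3 exons 2 to 9: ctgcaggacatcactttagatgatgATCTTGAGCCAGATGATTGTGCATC
NFATC3 exons 2 to 6: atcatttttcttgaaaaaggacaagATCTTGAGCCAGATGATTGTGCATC
FNDC3B exons 6 to 11: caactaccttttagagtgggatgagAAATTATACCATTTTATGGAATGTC
FNDC3B exons 6 to 10: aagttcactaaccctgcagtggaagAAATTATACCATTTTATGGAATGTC

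The libraries held between 18581156 and 24409250 gene reads. Back-splice reads numbered 13515 in Huh-7D12, 12916 in Hep3B, 7740 in SK-Hep-1 and 6235 in HepG2, so that the precision was lowest in HepG2. SK-Hep-1 stood apart by its markers: the hepatocyte markers ALB, APOA1, TTR and HNF4A had 0 reads there, and the summed normalized level of the hepatocyte markers was 40.5, against 20988 to 33178 in the other 3 lines. Its 8 mesenchymal markers summed to 11663, against 1776 to 8839, with VIM at 6046, against 0.109 to 784, but not each marker was highest there: FN1 was at 1837 in SK-Hep-1, against 8739 in HepG2, and CDH2 at 25.4, against 57.6. The 5 endothelial and 3 leukocyte markers summed to at most 1.92 in any line, with KDR at 0 in all 4, and the 4 epithelial markers to between 853 and 1224, most of it KRT8 and KRT18. Of the other 2, CDH1 was at 0 in SK-Hep-1, against 7.13 to 93.5, and EPCAM at 0.422, against 19.1 to 115. The part that this difference in cell state plays in the results below was not tested.

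Loops of 50 kb or more made up a small part of the circular RNA, and the part differed between the lines. They held 520 of 7424 back-splice reads with 1 host gene in SK-Hep-1, 645 of 12152 in Hep3B, 674 of 12791 in Huh-7D12 and 208 of 5934 in HepG2. As shares these were 7.0% (Wilson interval 6.45 to 7.61), 5.31% (4.92 to 5.72), 5.27% (4.90 to 5.67) and 3.51% (3.07 to 4.0) in the same order. SK-Hep-1 was highest and HepG2 lowest, and neither interval overlapped those of Hep3B and Huh-7D12, which overlapped each other. In such bulk libraries fewer cells with a loop and fewer copies per cell cannot be told apart. The loops of 10 to 50 kb were likewise lowest in HepG2, at 31.2% against 38.6% to 41.8%, while those of 2 to 10 kb and under 2 kb were highest there, at 40.6% against 32.2% to 34.5% and at 24.7% against 19% to 21.6%. In SK-Hep-1 a single circRNA, the BABAM2 loop printed above, gave 37 of the 520 reads. Without it the share was 6.54% (6.0 to 7.13), still above the intervals of the other 3 lines. With each circRNA counted once in place of its reads, the share was 7.21% (6.28 to 8.26) in SK-Hep-1 and its interval overlapped those of Hep3B and Huh-7D12. Only circRNAs with at least 5 reads in a line leave 6.23% in SK-Hep-1, 3.19% in Huh-7D12, 3.11% in Hep3B and 2.08% in HepG2.

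**Figure D1:**
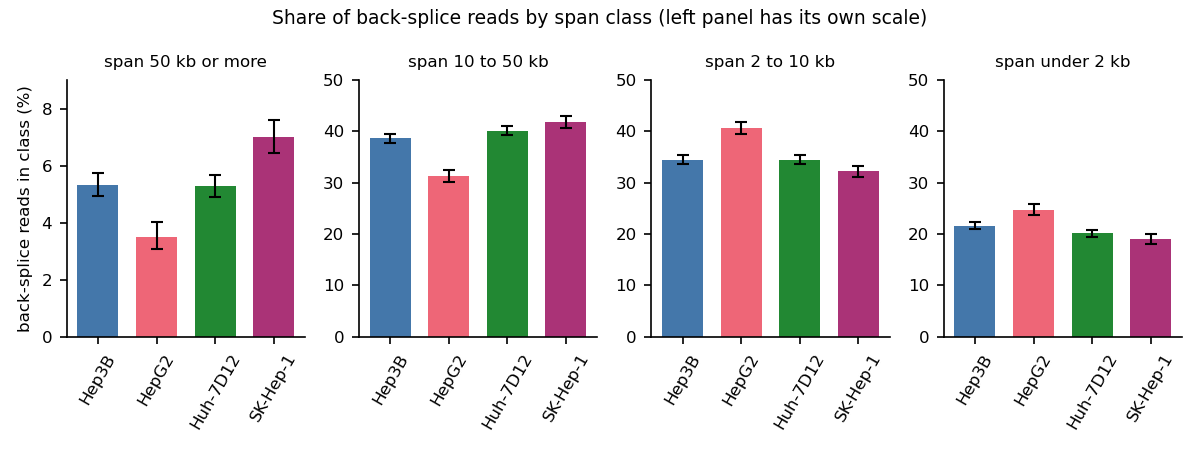
Percent of back-splice reads with 1 host gene that fell into each span class, per line; bars are shares and whiskers 95% Wilson intervals, which cover counting error only. In the left panel, which has its own scale, SK-Hep-1 stood at 7.0% and HepG2 at 3.51%, with Hep3B and Huh-7D12 at 5.31% and 5.27% between them.

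Most long loops were seen in few reads. Of the 560, 254 had 2 reads over the 4 libraries, 65 had 1 and 24 had 10 or more. That last share, 4.29%, compares with 7.96% of loops of 10 to 50 kb, 10.1% of 2 to 10 kb and 12% of under 2 kb. Reads were spread over the class: the 12 members with the highest mean level held 369 of 2047 reads, or 18.0%. The number fell with span, with 214 loops of 50 to 60 kb, 145 of 60 to 70 kb, 91 of 70 to 80 kb, 75 of 80 to 90 kb and 35 of 90 to 100 kb, and the median read number was 2 in each of these bins. No circRNA of the deposited table, with or without reads in these lines, spanned more than 99976 bases, so that longer loops were not analysed here. At the lower limit, the members with the smallest spans were a ROBO1 loop of 50002 bases, with 3 reads in Hep3B, and a STXBP4 loop of 50017 bases, with 1 read in Hep3B and 2 each in HepG2 and Huh-7D12. Just under it were loops of ASCC3 (49996 bases, 2 reads in Huh-7D12) and SUZ12P1 (49997 bases, 2 reads in SK-Hep-1).

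Few long loops were seen in all lines. Members with reads numbered 256 in Huh-7D12, 251 in Hep3B, 189 in SK-Hep-1 and 97 in HepG2. With every library thinned to the 6235 reads of HepG2, the expected numbers were 184.1, 179.7, 176.1 and 97. By these numbers HepG2 remained below the other 3, and those were close to each other. Thinning counted a loop left with 1 read as detected, whereas the deposited members had 1 read in all in 65 cases and 2 in 254. The expected numbers of the 3 deeper lines may therefore be too high beside the 97 of HepG2. How far was not tested. Of the 560, 400 (71.4%) had reads in 1 line, 103 (18.4%) in 2, 41 (7.32%) in 3 and 16 (2.86%) in all 4. For loops of 10 to 50 kb, 2 to 10 kb and under 2 kb the share in all 4 lines was 6.29%, 8.09% and 10.4%. Long loops also had fewer reads, and the shares were therefore compared at matched totals. At 6 to 10 reads over the 4 lines, 25 of 51 members (49.0%) had reads in 3 or 4 lines, against 56.9%, 63.6% and 66.7% in the shorter classes. At 11 to 20 reads it was 8 of 13 members (61.5%), against 87.4%, 93.7% and 91.9%, and at 21 or more 8 of 9. At 3 to 5 reads it was 16 of 168 members (9.52%), against 12%, 14.4% and 16%. The share was lowest in the long loops in each of these 4 ranges, with few members behind it at 11 reads and above, and no test was made.

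**Figure D2:**
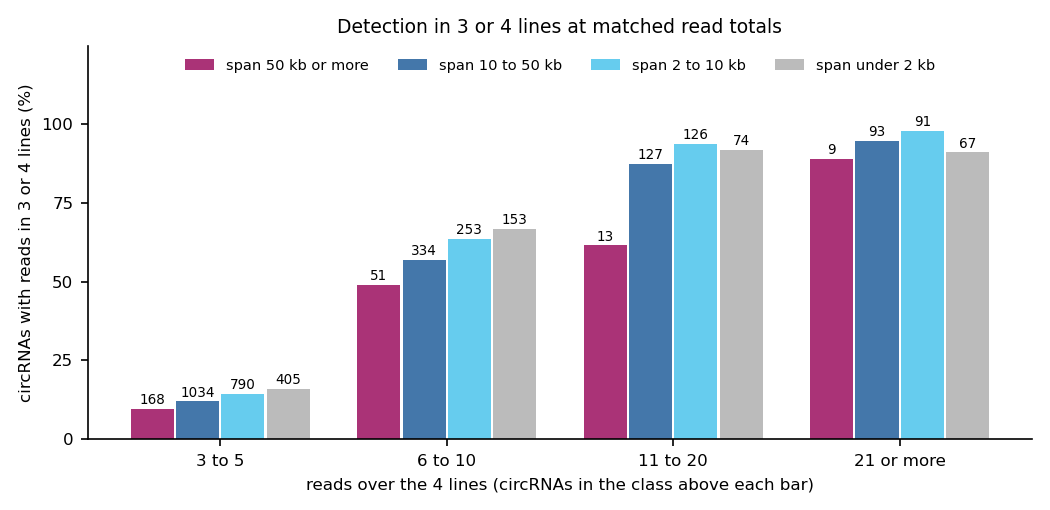
Percent of circRNAs with reads in 3 or 4 of the lines, by the sum of their reads over the lines and by span class; the number above each bar is the number of circRNAs it stands for. At 6 to 10 reads the loops of 50 kb or more stand at 49.0% and the loops under 2 kb at 66.7%.

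Hep3B and Huh-7D12, the lines with the most members, had the largest number in common, 92, which is 36.7% of those of Hep3B and 35.9% of those of Huh-7D12. SK-Hep-1 shared 52 with Hep3B (27.5% of its own and 20.7% of those of Hep3B) and 51 with Huh-7D12 (27.0% and 19.9%). Of its 97 members, HepG2 shared 47 with Hep3B (48.5% of its own and 18.7% of those of Hep3B), 47 with Huh-7D12 (48.5% and 18.4%) and 33 with SK-Hep-1 (34.0% and 17.5%). Loops seen in no other line carried 289 of the 520 long-loop reads of SK-Hep-1 (55.6%), 285 of 645 in Hep3B (44.2%), 298 of 674 in Huh-7D12 (44.2%) and 56 of 208 in HepG2 (26.9%). Detection in 1 line only was frequent in every class. It held for 71.4% of the long loops, against 61.4% at 10 to 50 kb, 58.5% at 2 to 10 kb and 54.7% under 2 kb. The overlaps and read shares of this paragraph were taken for the long loops only, so they are not read as a trait of these loops.

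The long loops lay in 397 host genes: 290 hosts had 1, 70 had 2, 25 had 3, 7 had 4, 3 had 5 and 2 had 6. Protein-coding genes hosted 548 of the 560. Against GENCODE 29, 430 (76.8%) had both ends at exon ends of a single transcript of the host, 18 had both ends at annotated exon ends but on no common transcript, and 112 had 1 end there. The first share was 83.8%, 86.5% and 82.9% for 10 to 50 kb, 2 to 10 kb and under 2 kb. What follows on exons refers to the 430, and spliced length assumes that every annotated exon inside the loop is kept and no intron is, which junction reads do not show.

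Although they covered at least 50 kb, these loops would leave short RNAs. The median loop held 7 exons with a spliced length of 1056 bases, so that 98.4% of the span was intron. For 10 to 50 kb, 2 to 10 kb and under 2 kb the medians were 5, 3 and 2 exons and 694.5, 437 and 323.5 bases. Spliced lengths ran from 160 bases in GPHN, which encodes the synaptic anchor gephyrin, to 10049 in KMT2C, a histone methyltransferase gene, each with 2 reads. The member with the most exons, 38, came from MDN1, a gene of ribosome biogenesis, also with 2 reads. Among the 430, 147 (34.2%) held 10 or more exons, against 11.4% at 10 to 50 kb, while 16 (3.72%) held only 2 exons around a long intron. The most abundant of those 16 were loops of DYRK1A, which encodes a protein kinase, and ADGRL2, which encodes the adhesion receptor latrophilin 2: their inner introns measured 52299 and 69959 bases and their spliced lengths 283 and 387.

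Long loops began more often at exon 2 of their hosts than the shorter classes did, and lay between longer introns. The median first exon was 3, as for loops of 10 to 50 kb. Exon 2 was the first exon of 202 of the 430 (47.0%), against 38.8%, 26.9% and 29.2% in the shorter classes, and the start codon lay inside 113 of 422 with a coding transcript (26.8%), against 17.3%, 12.4% and 16.4%. The intron upstream of the loop had a median of 18655 bases and the one downstream 15055.5, against 10974 and 8267.5 at 10 to 50 kb, 5781.5 and 5238 at 2 to 10 kb and 4879.5 and 4501 under 2 kb. Host length went along with this: the median was 189445 bases for the long loops and 124054, 89810 and 71790 for the shorter classes, and how far host length accounts for the intron lengths was not tested. The sequence at the joined exon ends was much the same in all classes. The last exon ended in AG in 59.9% of long loops and in 56.9% to 58.5% of the others, and the first exon began with G in 42.5% against 42.4% to 47.1% (transcript strand only). Median GC content of the spliced loop was 43.1%, against 42.8% at 10 to 50 kb and 46.9% under 2 kb. Of 298 long loops made of coding sequence only, 114 (38.3%) had a length that is a multiple of 3, against 34.2% to 38.3% in the other classes.

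Long loops often shared an end with a shorter circRNA of the same host. The first base of the loop was also used by another circRNA in 296 of the 560 (52.9%), against 42.0%, 30.0% and 20.8% in the shorter classes, and the last base in 188 (33.6%), against 32.6%, 23.6% and 16.4%. In 284 of the 296 a shorter loop used that first base, and the most abundant such loop had more reads than the long one in 199 cases, fewer in 55 and the same number in 30. Where the host had several circRNAs, the long loop was the most abundant in 94 of 496 cases (19%), against 26.5%, 32.8% and 37.5%. Over all members the median share of the summed circular level of the host was 16.1%, against 25.7%, 38.4% and 58.3%. These medians include circRNAs that were the only one of their host, whose share is 100% by construction. They were 11.4% of members, against 16.7%, 25.4% and 37.0% in the shorter classes. A host with many circRNAs gives each a smaller share. The median number of circRNAs per host was 5 for the long loops and 4, 3 and 2 for the others.

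The 2 most abundant long loops were found in all 4 lines. The loop of exons 3 to 9 of RNF13 (chr3:149846011-149921227, plus strand), a gene of an endosomal E3 ubiquitin ligase, spanned 75218 bases and had 32 reads in SK-Hep-1. Hep3B had 19, HepG2 11 and Huh-7D12 3. Its normalized levels, with exact Poisson intervals, were 43.1 (29.5 to 60.8), 16.9 (10.2 to 26.4), 15.3 (7.66 to 27.4) and 3.25 (0.670 to 9.50) in that order, and the interval of SK-Hep-1 lay above the other 3. Reads of the RNF13 gene numbered 1260, 1294, 657 and 382, so that the loop had 2.54%, 1.47%, 1.67% and 0.785% as many reads as the gene. It held 74.3% of the circular level of RNF13, whose loops of exons 3 to 8 (9 reads) and 3 to 7 (2 reads) start at the same base.

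RERE encodes a nuclear co-regulator of the atrophin family. Its loop of exons 5 to 8, the first printed above, spanned 73474 bases and had 34 reads in Huh-7D12, 16 in Hep3B, 15 in HepG2 and 4 in SK-Hep-1, at levels of 36.8 (25.5 to 51.5), 14.2 (8.14 to 23.1), 20.9 (11.7 to 34.5) and 5.38 (1.47 to 13.8). The interval of Huh-7D12 lay above those of Hep3B and SK-Hep-1 and overlapped that of HepG2. RERE gene reads were 1246, 1041, 1129 and 397. A much shorter circRNA of the same gene, made of exon 3 alone with a span of 470 bases, had 32, 17, 10 and 3 reads in the same order. That comparison was chosen after the values were seen.

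BABAM2 encodes a subunit of the BRCA1-A and BRISC deubiquitinase complexes. Its loop of exons 5 to 7 spanned 57808 bases, and all of its 37 reads lay in SK-Hep-1. The level was 49.8 (35.1 to 68.6) there, the highest of any member in any line, and 0 in the other 3, where the intervals reached up to 5.14. BABAM2 gene reads were 800 in SK-Hep-1, 326 in HepG2, 216 in Hep3B and 186 in Huh-7D12. The gene was thus expressed in each line, and the loop had 4.63% (3.26 to 6.37) as many reads as its gene in SK-Hep-1. The other circRNAs of BABAM2, which begin at the same base, were also seen mostly in this line: the loop of exons 5 to 6, of 37429 bases, had 9 reads in SK-Hep-1 and 1 in Huh-7D12, and a loop of 63651 bases with 1 annotated end had 2 reads in SK-Hep-1. The first base of these loops also lies inside the annotated extent of MRPL33, a mitochondrial ribosomal protein gene on the same strand. In all, 13 members have an end inside another protein-coding gene of the same strand that does not cover the other end. Members with both ends inside the same other genes were not counted.

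**Figure D3:**
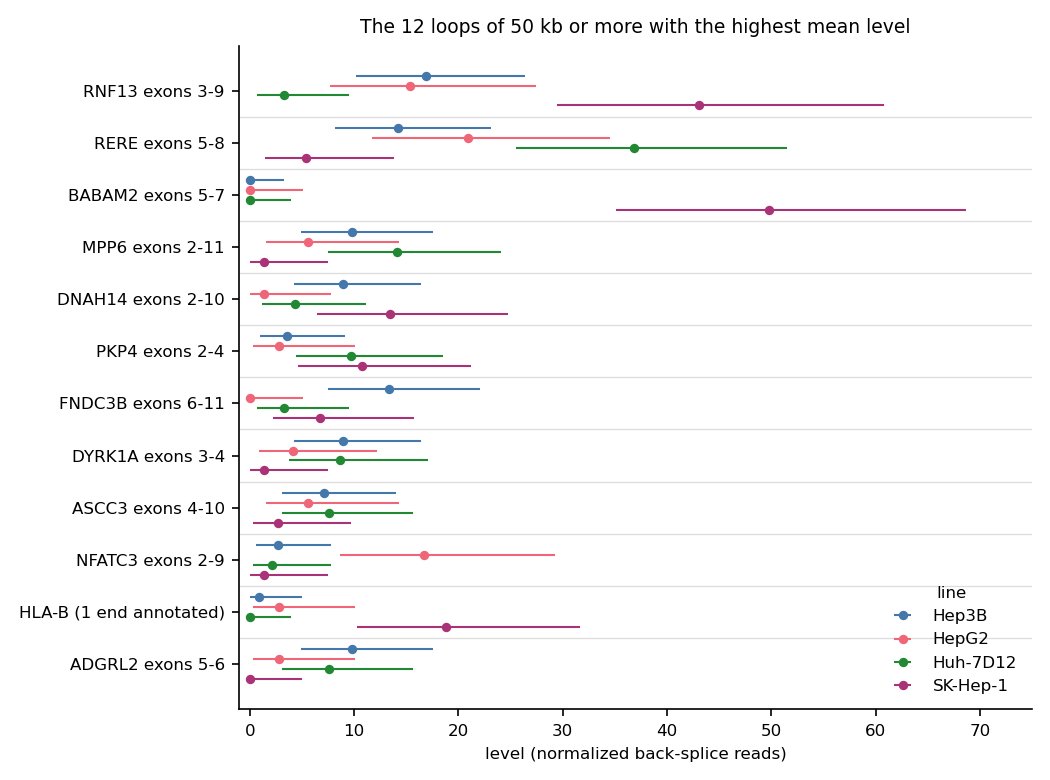
Level of the 12 long loops with the highest mean, in normalized back-splice reads, per line (points) with exact 95% Poisson intervals (bars), which cover counting error only. BABAM2 has a level of 49.8 in SK-Hep-1 and 0 in the other 3 lines, and RNF13 and RERE are highest in SK-Hep-1 (43.1) and Huh-7D12 (36.8).

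Of the next members in order of mean level, several were low in SK-Hep-1. MPP6, a gene of a membrane-associated scaffold protein, gave a loop of exons 2 to 11 with 13 reads in Huh-7D12, 11 in Hep3B, 4 in HepG2 and 1 in SK-Hep-1. The DYRK1A loop of exons 3 to 4 had 10 reads in Hep3B, 8 in Huh-7D12, 3 in HepG2 and 1 in SK-Hep-1. The ADGRL2 loop of exons 5 to 6 had 11 reads in Hep3B, 7 in Huh-7D12, 2 in HepG2 and 0 in SK-Hep-1. In these 3 the intervals of the highest and the lowest line overlapped, for MPP6 and ADGRL2 by little; those of ADGRL2 were 4.89 to 17.5 in Hep3B and 0 to 4.97 in SK-Hep-1. A loop of exons 4 to 10 of ASCC3, a helicase gene of DNA alkylation repair, had 8 reads in Hep3B, 7 in Huh-7D12, 4 in HepG2 and 2 in SK-Hep-1, and its 4 intervals overlapped.

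DNAH14, which encodes an axonemal dynein heavy chain, gave a loop of exons 2 to 10 with 10 reads in SK-Hep-1, 10 in Hep3B, 4 in Huh-7D12 and 1 in HepG2. The loop of exons 2 to 4 of PKP4, an armadillo protein gene of cell junctions, had 9 reads in Huh-7D12, 8 in SK-Hep-1, 4 in Hep3B and 2 in HepG2. FNDC3B, a gene of a membrane protein with fibronectin type III domains, gave a loop of exons 6 to 11 with 15 reads in Hep3B, 5 in SK-Hep-1 and 3 in Huh-7D12. It had 0 in HepG2, where the gene itself had 7286 reads. Its interval in Hep3B (7.48 to 22.0) lay above that in HepG2 (0 to 5.14) and overlapped those of Huh-7D12 and SK-Hep-1. For DNAH14 and PKP4 the intervals of all 4 lines overlapped.

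The other 9 of the 16 members found in all 4 lines, a set chosen by its reads, had 5 to 18 reads each over the lines. The NFATC3 loop of exons 2 to 9 is described below with the loops that stood higher in a line. CDC14B, a phosphatase gene, gave a loop of exons 2 to 13 with 16 reads, ATXN10 one of exons 2 to 9 with 13, and NLK, a kinase gene of the Wnt and MAPK pathways, one of exons 2 to 7 with 11. ABI2, a gene of the WAVE actin-regulating complex, followed with 8 reads and SRPK2, a kinase of splicing factors, with 8. The remaining loops were those of MIB1, an E3 ligase gene of the Notch pathway, with 7 reads, PTK2 (focal adhesion kinase, exons 3 to 8) with 7 and MAP2K4, a kinase gene of the JNK pathway, with 5. In each of these 8 the largest read number in a line was between 2 and 7. The lines could not be ordered at that depth.

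The lines were compared by a rule of size: with a pseudocount of 1.21 added, a circRNA stands higher in a line whose log2 level exceeds each of the other 3 by 2 or more (4-fold), and lower in one that each of the others exceeds by as much. It entered the comparison with a level of at least 6.07 in some line, which takes 7 reads in Hep3B, 6 in Huh-7D12 and 5 in HepG2 or SK-Hep-1. Of the 560 members 39 entered, and 15 of these stood higher in a line: 10 in SK-Hep-1, 2 in Huh-7D12, 2 in HepG2 and 1 in Hep3B. Over all 735 circRNAs that entered, 8.16% stood higher in SK-Hep-1, 6.39% in Huh-7D12, 1.63% in HepG2 and 1.63% in Hep3B. These shares depend on the scaling: with levels scaled to back-splice totals they were 9.73%, 2.29%, 4.01% and 1.86% in that order, and the members standing higher were 11, 1, 2 and 1. For SK-Hep-1 the 10 of 39 members are 25.6%, against 10.1%, 3.67% and 7.36% in the shorter classes. Of those 10, however, 6 had exactly 5 reads in SK-Hep-1 and 0 elsewhere, the lowest number that can enter there. Without such circRNAs 4 of 33 members remained. The shorter classes were not recounted in this way, so the 25.6% has no matched value beside it. No member stood lower in a line, and 5.44% of all circRNAs that entered did. With only 39 members entered this is not read as a difference, and the number became 6 with a pseudocount divided by 4. The calls rest on few reads. In 11 of the 15 the other 3 lines had 0 reads, and against a floor of 3 reads only the BABAM2 loop was then at least 4-fold higher. In the other 4 the counting interval of the fold began under 4. Folds given below as at least set the observed level against the floor. They leave out the counting error of the observed reads and so are no lower bounds of the difference.

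In SK-Hep-1, the BABAM2 loop had 37 reads against 0 in each other line and was at least 11.9-fold higher, with a gene level 2.37-fold (2.08 to 2.70) higher than in HepG2, the next line. NAV3, which encodes a microtubule-binding navigator protein, gave a loop of exons 2 to 9 spanning 81545 bases, with 7 reads in SK-Hep-1 and 0 elsewhere, at least 2.25-fold higher, while the gene was 11.4-fold (10.2 to 12.8) higher than in Huh-7D12. The loop of exons 77 to 84 of DYNC2H1, the heavy chain gene of the dynein of retrograde transport in cilia, had 5 reads in SK-Hep-1 and 0 elsewhere, and its gene was 70.0-fold (48.2 to 106) higher than in Hep3B. The circRNA and the gene were thus both high in SK-Hep-1 for NAV3 and DYNC2H1, but for BABAM2 the gene was up by less than 4-fold. Loops of CCDC15 (exons 2 to 15), of NLN, a metallopeptidase gene (exons 2 to 12), of PRKACB, the gene of a catalytic subunit of protein kinase A, and of TEX9 also had 5 reads in SK-Hep-1 and 0 elsewhere. Against the floor, the level observed there was 1.61-fold higher for each, with the counting error of the 5 reads left out. Their genes did not follow: the level in SK-Hep-1 was 1.07-fold (0.868 to 1.32) that of HepG2 for CCDC15, 0.894-fold (0.835 to 0.958) that of Huh-7D12 for NLN, 1.04-fold (0.921 to 1.17) that of Huh-7D12 for PRKACB and 0.721-fold (0.524 to 0.983) that of Hep3B for TEX9, the highest of the other lines in each case.

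CRIM1, a transmembrane regulator of bone morphogenetic proteins, supplied 2 of the 10 calls and 6 members in all. Together the 6 had 24 reads in SK-Hep-1 and 4 in Huh-7D12, while HepG2 and Hep3B had 0. The most abundant circRNA of CRIM1 under 50 kb, of exons 2 to 4, had 19 reads in SK-Hep-1, 4 in Huh-7D12, 1 in HepG2 and 1 in Hep3B. None of its shorter circRNAs had more reads in another line than in SK-Hep-1. A loop with 1 annotated end (chr2:36387972-36442735, plus strand) had 10 reads in SK-Hep-1 against 2 in Huh-7D12, a 6.21-fold (1.32 to 58.3) difference, and the loop of exons 2 to 5 had 5 reads in SK-Hep-1 and 0 elsewhere. In SK-Hep-1 the level of the CRIM1 gene was 3.29-fold (3.15 to 3.44) higher than in HepG2, where 2586 gene reads came with no long loop. HLA-B, which encodes a class I histocompatibility antigen, was the last: its loop, with a span of 84960 bases (chr6:31271999-31356957, minus strand) had 14 reads in SK-Hep-1, 2 in HepG2, 1 in Hep3B and 0 in Huh-7D12. Against HepG2 the loop was 6.76-fold (1.55 to 61.2) higher, and the HLA-B gene was 10.1-fold (9.13 to 11.3) higher. Only 1 of its ends lies at an annotated exon of HLA-B, and the low end lies in HLA-C, a gene of very similar sequence, so that this loop is uncertain.

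In Huh-7D12, the NPLOC4 loop of exons 3 to 13 had 14 reads against 0 in each other line and was at least 3.62-fold higher. NPLOC4 encodes an adaptor through which the p97 segregase binds ubiquitinated proteins, and its gene had 1673 reads in Huh-7D12, 1816 in Hep3B, 1320 in HepG2 and 1149 in SK-Hep-1, a level 0.984-fold (0.915 to 1.06) that of HepG2. The loop and its gene thus differed in their distribution over lines, and the loop had 0.837% (0.457 to 1.40) as many reads as the gene in Huh-7D12. A second circRNA of NPLOC4, of exons 6 to 11, had 2 reads in Huh-7D12, 1 in SK-Hep-1 and 0 in the others. SND1, a gene of a nuclease and tudor domain protein, gave a loop of exons 11 to 13 with 7 reads in Huh-7D12, 1 in Hep3B and 0 in HepG2 and SK-Hep-1, 8.52-fold (1.09 to 384) higher than in Hep3B. Its longer neighbour, exons 11 to 14 from the same first base, had 4 reads in Huh-7D12 and 1 each in Hep3B and HepG2. The SND1 gene was 0.872-fold (0.841 to 0.904) as high in Huh-7D12 as in SK-Hep-1.

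In HepG2, ITPR2, the gene of a calcium channel of the endoplasmic reticulum opened by inositol trisphosphate, gave the loop of exons 27 to 37, with 7 reads in HepG2 and 0 elsewhere. It was at least 2.42-fold higher, and the gene was 2.10-fold (2.0 to 2.19) higher than in Hep3B. Both other long loops of ITPR2 were also seen in HepG2 alone, exons 24 to 37 with 3 reads and exons 17 to 34 with 2, whereas its loop of exons 27 to 32, of 7243 bases and from the same first exon, had 5 reads in Hep3B, 4 in Huh-7D12, 2 in HepG2 and 0 in SK-Hep-1. The NFATC3 loop of exons 2 to 9 had 12 reads in HepG2, 3 in Hep3B and 2 in Huh-7D12, and SK-Hep-1 had 1. It was 6.26-fold (1.69 to 34.6) higher in HepG2 than in Hep3B. NFATC3 encodes a transcription factor activated by calcineurin, and its gene was 2.62-fold (2.43 to 2.83) higher in HepG2 than in Huh-7D12. In Hep3B, KANSL1L, a paralogue of a subunit gene of the NSL histone acetyltransferase complex, gave a loop of exons 2 to 5 with 7 reads in Hep3B and 0 elsewhere, at least 1.49-fold higher, with a gene 1.48-fold (1.30 to 1.70) higher than in SK-Hep-1.

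Over the 15 members that stood higher in a line, the host gene was also at least 4-fold higher in that line for 3, NAV3, DYNC2H1 and HLA-B. Over all 131 circRNAs that stood higher, the host did so in 32.1%. The host was highest in the same line, by whatever margin, for 11 of the 15, and not the highest for NPLOC4, SND1, NLN and TEX9. In the shorter classes it was highest for 44 of 58 at 10 to 50 kb, 23 of 35 at 2 to 10 kb and 19 of 23 under 2 kb. The long loops did not stand apart in this. With a host limit of 2-fold in place of 4-fold, 8 of the 15 passed, a count that was not made for the shorter classes.

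**Figure D4:**
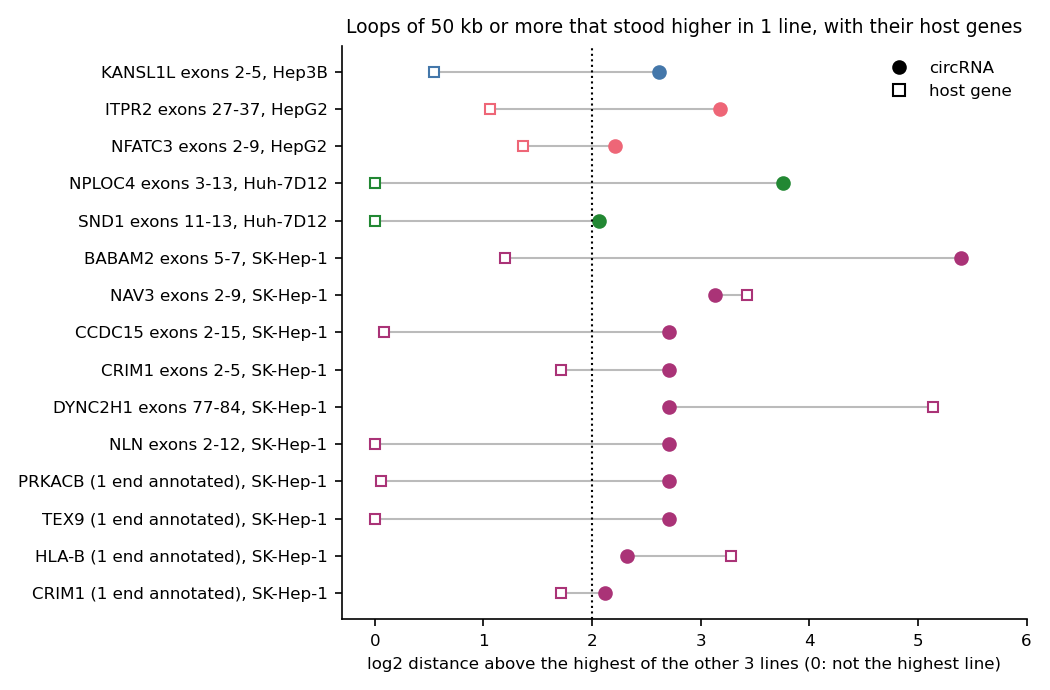
Log2 distance of each of the 15 loops that stood higher in a line (filled circles) and of its host gene (open squares) above the highest of the other 3 lines; 0 means that the line was not the highest, and the dotted line marks 4-fold. The squares pass 4-fold for NAV3, DYNC2H1 and HLA-B, and sit at 0 for NPLOC4, SND1, NLN and TEX9.

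Some hosts gave a series of long loops. FNDC3B had 6, from 51256 to 72838 bases, with 22 reads in Hep3B, 11 in Huh-7D12, 5 in SK-Hep-1 and 1 in HepG2. Its loops of exons 6 to 11 and 6 to 10, whose junctions are printed above, differ by 1 exon and had 23 and 7 reads, against 203 reads for the circRNA of exons 5 to 6 of the same gene, which spans 4010 bases. DNAH14 had 5, with 14 reads in Hep3B, 13 in SK-Hep-1, 1 in HepG2 and 6 in Huh-7D12, and the loop of exons 2 to 8, of 21485 bases, had 22, 9, 2 and 11 reads in the same order. EIF4G3, a translation initiation factor gene, had 5, with 16 reads in Huh-7D12, 5 in SK-Hep-1, 4 in Hep3B and 3 in HepG2. VPS13B, a gene of lipid transfer at the Golgi apparatus, had 5 at 2 reads each, of which 3 were seen in Huh-7D12 and 2 in Hep3B. No pair of these 5 shared an end.

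NFATC3 had 4 long loops, 34 reads in all, 3 of them from the same first base. From the start of exon 2, the loop to exon 9 had 18 reads over the lines, to exon 8 it had 5, to exon 6 it had 8 and to exon 4, under 50 kb, it had 24. The circRNAs that close within exons 2 to 3 (4625 bases) and within exon 2 alone (1136 bases) had 563 and 230 reads. The long loops held a small share of the circular RNA of this gene: the one to exon 9 was 2.25% of the circular level of NFATC3. Both short circRNAs also had the most reads in HepG2. The first had 218 there, 153 in Huh-7D12, 152 in Hep3B and 40 in SK-Hep-1, and the second 111, 50, 58 and 11. The loop to exon 4 had 8 reads in HepG2 and 8 in Huh-7D12. In MPP6 the long loop of exons 2 to 11 stood at 29 reads beside 84 for the loop of exons 2 to 9, of 44996 bases, and in HepG2 it had 4 reads beside 2.

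**Figure D5:**
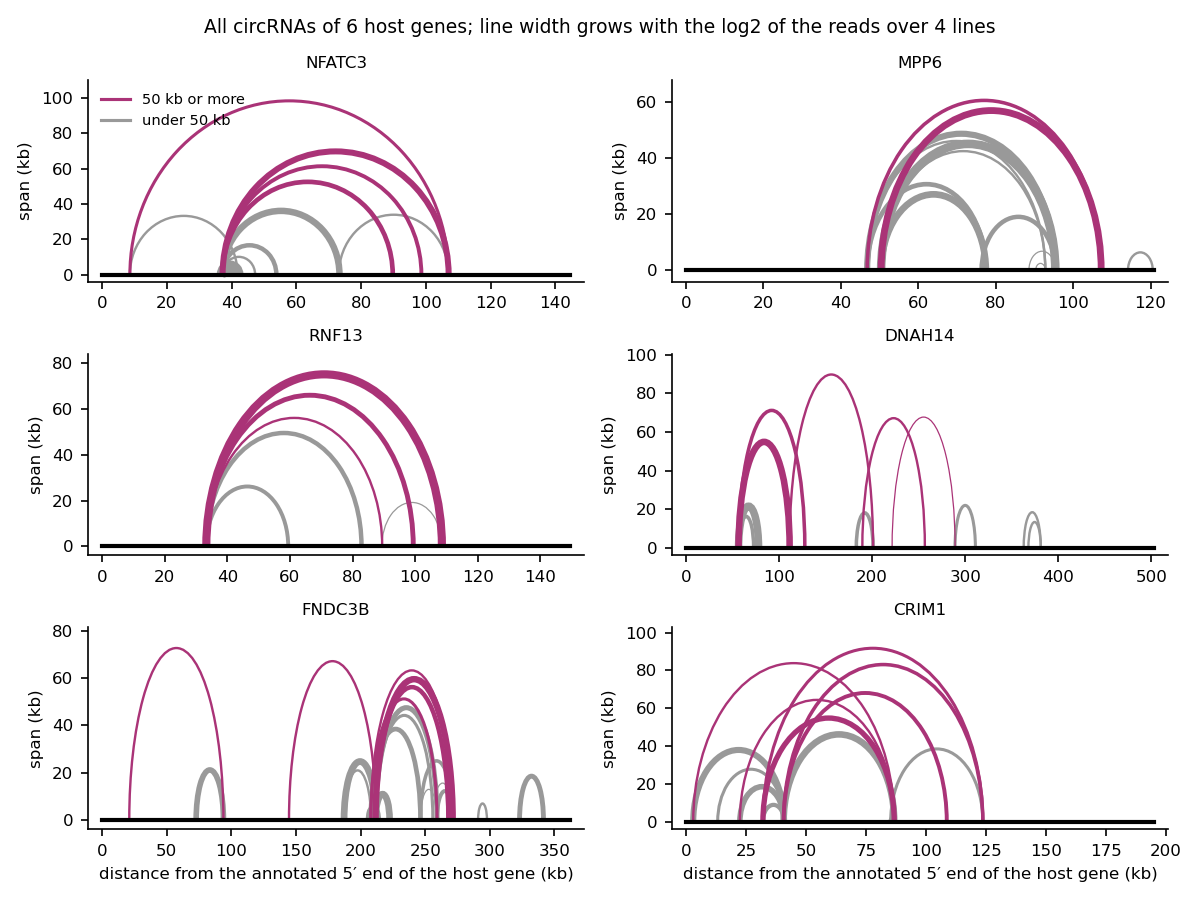
All circRNAs of 6 host genes drawn as arcs between their ends, at true distance from the annotated 5′ end of the gene (horizontal axis, kb); the height of an arc is its span (kb), its width grows with the log2 of its reads over the lines, and long loops are purple. In NFATC3, RNF13 and MPP6 the arcs fan out from a few first exons, while the 5 long loops of DNAH14 are spread along the gene.

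Of the 7 hosts with 4 long loops, PPARG and TBC1D12 also formed such series. PPARG encodes a nuclear receptor known for control of lipid storage. From the start of its exon 2, the loops to exons 5, 6 and 7, spanning 69113, 80374 and 93703 bases, had 3, 4 and 4 reads in Hep3B, where the fourth, of exons 3 to 6, had 2. Elsewhere the 4 loops had 1 read in Huh-7D12, 1 in HepG2 and 0 in SK-Hep-1. PPARG gene reads numbered 1233 in Hep3B, 500 in Huh-7D12, 294 in HepG2 and 21 in SK-Hep-1. TBC1D12, a gene with the domain of Rab GTPase-activating proteins, closed exon 2 with exons 5, 6, 9 and 11, at 3 or 4 reads each and 10 reads in Huh-7D12 against 5 in SK-Hep-1. The last bases of the loops to exons 9 and 11 also lie inside the annotated extent of HELLS, a gene on the same strand. Neither Hep3B nor HepG2 had a read of them, with 234 and 266 gene reads there, while Huh-7D12 had 1114 and SK-Hep-1 942. In both genes the lines with long loops were those with the most gene reads. The loops of PTK2, CCDC91, SLC4A7, a bicarbonate cotransporter gene, and FAF1, a gene of a ubiquitin-binding partner of p97, summed to 21, 11, 10 and 10 reads, with no line above 8.

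The longest loops had few reads. ARSB, which encodes the lysosomal enzyme arylsulfatase B, gave the longest, exons 2 to 6 over 99976 bases, with 3 reads in HepG2 and 1 in Hep3B. The ADGRL2 loop of exons 5 to 7 (99954 bases) had 2 reads in Huh-7D12, a loop of PHF20, a gene of a chromatin reader (exons 2 to 11, 99556 bases), had 3 in Hep3B, a STXBP4 loop (99116 bases) had 2 in Huh-7D12, and a NFATC3 loop with 1 annotated end (98421 bases) had 3 in Hep3B. None of these 5 was seen in more than 2 lines.

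The level of a loop was also set against the reads of its gene in the same line. Junction reads sample 1 point of a transcript and gene reads its whole length, so that the percentage is no ratio of molecules. Over members with reads its median was 0.238% in SK-Hep-1 (n = 189), 0.197% in Huh-7D12 (n = 255), 0.179% in HepG2 (n = 97) and 0.171% in Hep3B (n = 251). Over all circRNAs it was 0.212%, 0.195%, 0.175% and 0.154% in the same order, close to the long loops. Each median covers only circRNAs with reads in the line. Over the 4 lines, 57.0% of members had only 1 or 2 reads, against 46.5% to 51.0% in the shorter classes. At so few reads the percentage is set largely by the gene reads, so the closeness of the medians says little about the loops. Among members with at least 10 reads in a line, the highest were BABAM2 in SK-Hep-1 (4.63%), RERE in Huh-7D12 (2.73%, 1.89 to 3.81), RNF13 in SK-Hep-1 (2.54%, 1.74 to 3.59), DNAH14 in SK-Hep-1 (1.53%, 0.735 to 2.82), NPLOC4 in Huh-7D12 (0.837%) and MPP6 in Huh-7D12 (0.604%, 0.321 to 1.03).

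Of the 12 members in genes that code for no protein, RMST had the most reads. RMST is a long non-coding RNA gene known for neural differentiation. Its loop of exons 7 to 15 (chr12:97492461-97561047, plus strand), picked after its values were seen, had 9 reads in Huh-7D12, 9 in Hep3B and 0 in HepG2 and SK-Hep-1, and it was the only circRNA of the gene. RMST gene reads numbered 21 in Huh-7D12, 8 in Hep3B, 1 in HepG2 and 0 in SK-Hep-1. Junction reads thus outnumbered gene reads in Hep3B, which also shows that the gene reads of the deposited table need not contain the junction reads. CDKN2B-AS1, an antisense RNA of the CDKN2A and CDKN2B locus, gave 2 long loops with 9 reads in Hep3B and 1 in Huh-7D12.

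Host genes were also counted by 6 lists of known function. Of the 3366 genes that hosted any circRNA, 397 hosted a long loop, and long loops were 7.36% of all circRNAs. Among genes of common fragile sites, which are among the longest in the genome, 4 of 12 circRNA hosts had a long loop, and 4 of their 24 circRNAs (16.7%) were long. IMMP2L, a gene of a mitochondrial inner membrane peptidase, had the most reads of these, 5 in Hep3B and 1 in HepG2 for exons 2 to 4, and the median over the list was 4 reads. Membrane traffic and ubiquitin genes had 13 of 34 hosts and 29 of 169 circRNAs (17.2%) with a median of 2 reads, and their only member with 5 reads in a line was the loop of exons 13 to 18 of ATG7, an autophagy enzyme gene, with 6 reads in SK-Hep-1 and 3 in Huh-7D12. Kinases, phosphatases and phosphodiesterases had 8 of 28 hosts and 13 of 98 circRNAs (13.3%), with a PTK2 loop of exons 3 to 10 at the top, at 5 reads in SK-Hep-1, 4 in Hep3B and 1 in Huh-7D12.

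Cytoskeleton and adhesion genes had 9 of 30 hosts and 14 of 110 circRNAs (12.7%), 6 of these 14 from FNDC3B. Chromatin and transcription genes had 14 of 40 hosts and 23 of 207 circRNAs (11.1%), led by RERE and NFATC3. RNA binding and processing genes had 2 of 19 hosts, AGO2 and QKI, and 2 of 83 circRNAs (2.41%). Of the members in these lists 5 entered the comparison of lines and 1 of these stood higher in a line, the NFATC3 loop of exons 2 to 9, against 15 of 39 for all long loops and 131 of 735 for all circRNAs. None of the 5 stood lower. The median was 2 to 4 reads in each list and 2 over all members. The lists differ in gene length, which was not matched here.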

How the data were processed

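Total RNA of each line was sequenced once, after depletion of ribosomal RNA, as paired reads of 100 bases, per the labels' protocols. STAR 2.6.1d and hg38 are named in the submitters' processing notes; how circRNAs were called, annotated and normalized is not given in the sources used. The deposited signal values are reads per gene or per back-splice junction that the authors multiplied by 1 factor per library (0.890 for Hep3B, 1.08 for Huh-7D12, 1.35 for SK-Hep-1 and 1.39 for HepG2). Division by that factor gave whole reads for 100% of values, within a tolerance of 0.001, and an empty value was taken as 0 reads. Of the 12473 circRNAs, 4473 had no value, and 282 with several hosts and 114 with none were set aside.

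The deposited positions are the bases that flank a loop, and positions are printed as its first and last base, 1-based, on GRCh38. Exons come from GENCODE 29. Levels are the deposited normalized reads, and fold changes are ratios of these. A fold against libraries at 0 uses a floor of 3 reads in the library of those with the largest factor. Such a fold, given as at least, leaves out the counting error of the observed reads. Intervals are 95%: exact Poisson for levels, Clopper-Pearson for folds between lines, and Wilson for shares. Percentages of gene reads have exact Poisson intervals of the junction reads, with the gene reads taken as fixed. Reads carry no molecular identifiers, so intervals and floors cover counting error only. The size rule used a pseudocount of 1.21, the median value of 1 read over the 4 libraries, an entry level 5 times that (6.07), and 4-fold; gene levels were the normalized values times 0.0392, with a pseudocount of 1. Expected detection at a lower depth was computed from the reads and was not tested on simulated data. The size rule was run on simulated reads with known folds. The check made there required recovery of the largest simulated fold only, so it does not show how well smaller folds are called. Thinning, the pseudocount, the entry level, the fold, the span limit, the scale and the read minimum were varied. By rule, the text names the 12 members with the highest mean level, up to 5 per line that stood higher, the 5 longest, the 2 on either side of the span limit, the 6 hosts with most members, the 6 highest percentages of gene reads (from 10 reads) and list members with at least 5 reads in a line. The other members that stood higher, those seen in all 4 lines, the extremes of exon structure, the non-coding hosts and the hosts with 4 members were named after their values were seen. The members and the lists were chosen with earlier results of these data known. Python 3.11.15, pandas 2.3.3, numpy 2.4.6, scipy 1.17.1 and statsmodels 0.14.6 were used.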

Additional observations from a re-analysis of the deposited data

Results flagged for a closer look

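Back-splice reads also fell into 52 circRNAs of 50 kb or more that have no single host gene in the deposited table and enter no comparison above: 40 with no host gene held 249 reads and 12 with several held 41. They came to 98 reads in Hep3B, 81 in Huh-7D12, 62 in SK-Hep-1 and 49 in HepG2, above the 3 reads that a count of 0 allows in each line. The largest (chr6:29944122-30007593, GRCh38) had 58 reads in Hep3B, 30 in HepG2, 20 in SK-Hep-1 and 0 in Huh-7D12, more over the lines than any long loop with 1 host gene. The next (chr6:32521905-32581838) had 19 reads, all in SK-Hep-1. Both were given no host gene, and no gene name was assigned here.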

How the results depend on the processing

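No paired analysis was possible because each line has 1 library, and a limit of 100 kb gave no value because no circRNA spans more than 99976 bases. The order of the shares, with SK-Hep-1 highest and HepG2 lowest, held in each setting tried, while Hep3B and Huh-7D12 changed places with a minimum of 2 or 5 reads. Counting each circRNA once gave 7.21% (6.28 to 8.26) in SK-Hep-1, 6.67% (5.92 to 7.51) in Hep3B, 6.60% (5.86 to 7.42) in Huh-7D12 and 4.25% in HepG2, and the interval of SK-Hep-1 then overlapped those of Hep3B and Huh-7D12. A span of at least 40 kb gave 10.7% in SK-Hep-1, 9.10% in Hep3B, 9.01% in Huh-7D12 and 5.75% in HepG2. With any number of hosts the share was 5.75% in Hep3B and 4.12% in HepG2, and with at least 5 reads in the line it was 6.23% in SK-Hep-1, 3.19% in Huh-7D12, 3.11% in Hep3B and 2.08% in HepG2. The 560 members became 861 at 40 kb and 56 with at least 5 reads in a line. Per line, detected members became 412 in Huh-7D12, 392 in Hep3B, 296 in SK-Hep-1 and 166 in HepG2 at 40 kb; 23, 22, 20 and 5 in that order with at least 5 reads; and 51 in HepG2 with at least 2. Members in all 4 lines became 33 at 40 kb and 4 with at least 2 reads in each.

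The numbers standing higher in a line depend on the settings. In SK-Hep-1 the 10 became 30 with no entry level, 3 with the entry level doubled, 2 at 8-fold, 1 with a pseudocount 4 times as large and 4 without circRNAs of 5 reads in 1 line, a setting chosen after seeing the data. In Huh-7D12 the 2 became 8, 1, 1 and 1 under the first 4 of these, 4 at 40 kb and 1 when scaled to back-splice totals. In HepG2 the 2 became 4, 1, 1 and 0 under the first 4, and in Hep3B the 1 became 4, 0, 0 and 0, and 2 at 40 kb. The number standing lower, 0, became 6 with a pseudocount divided by 4, 4 at 40 kb and 1 when scaled to back-splice totals. Hosts also higher became 8 of 15 with a host limit of 2-fold. Taking the percentage of gene reads over all long loops of a host, also listed among the alternatives, moved the median to 0.294% in Huh-7D12, 0.307% in SK-Hep-1 and 0.207% in Hep3B. With the larger pseudocount 2 of the 15 members that stood higher still did, and 9 of those tracked one by one fell below 4-fold with their direction kept; the cause of these changes, beyond what each setting does by construction, was not tested. Depth limits what can be seen: 5 to 7 reads were needed to enter.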
